A study of Sus scrofa with 64 samples.

Results

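The collagens, laminins, fibrillins, small proteoglycans, matrix proteases and protease inhibitors of the pig were followed over 16 tissues. Members were the probes whose annotated gene symbol begins with COL, LAMA, LAMB, LAMC, FBN, MMP, TIMP or ADAMTS followed by a number, or is FN1, SPARC, DCN, LUM, BGN, ELN, FMOD or LOX. The rule uses symbols and no measured level, but it was set with earlier results of these data known. It gave 75 of the 23935 probes on the array that measure pig transcripts, for 40 of the 6765 genes named there. No probe carried the symbols ELN or FMOD, and these genes were not analysed here. Of the 40 genes 19 had 1 probe and 21 had several, so that many probes share their target. The brightest probe, by its mean over all arrays, stands for a gene unless another is named.

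Total RNA of 16 frozen tissues from each of 4 untreated pigs was hybridised to Affymetrix porcine arrays, 1 array per tissue and animal and 64 in all. The animals were a Large White male (38.8 kg) and female (36.2 kg) of 87 days, and an Iberian male (25.4 kg) and female (32.8 kg) of 89 days, housed at the same time on the same diets. The tissues were liver, back fat, abdominal fat, the diaphragm and *Biceps femoris* muscles, olfactory bulb, hypothalamus, pineal gland, neurohypophysis, adenohypophysis, adrenal cortex, adrenal medulla, thyroid gland, stomach, ileum and whole blood. Cortex and medulla of the adrenal gland had been parted with a knife, and the study describes the stomach and ileum samples as epithelium. Levels are the deposited log2 values, on which 1 unit is a 2-fold difference in signal, and are given as mean ± SD over arrays. Where several tissues form a group, its SD includes their differences. Each combination of breed and sex is 1 animal. P-values for tissues measure the spread of arrays within tissues, pooled over the tissues fitted, after breed and sex. They treat the arrays of an animal as independent. P-values for breed and sex rest on the means of the 4 animals, and no p-value extends beyond these animals.

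The extracellular matrix is secreted by fibroblasts, vessel cells, fat and muscle cells and many epithelia. Fibrillar collagens carry tension, type V collagen sets the width of their fibrils, and the small proteoglycans decorin (DCN), lumican (LUM) and biglycan (BGN) bind to them. Type IV collagen and laminins build the basement membranes under epithelia and around vessels, muscle fibres and fat cells, and type VI collagen forms microfibrils beside these membranes. Matrix metalloproteinases (MMPs) and ADAMTS proteases cut matrix proteins, and the tissue inhibitors of metalloproteinases (TIMPs) block them. SPARC is a small secreted protein that binds collagen.

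A low array value does not show that a gene was expressed. The 64 reporter probe sets of the array, which measure no pig gene, therefore served as a scale for dim signals. A probe was taken as above the reporters in a tissue where all 4 arrays exceeded the 95th percentile of the reporters on the same array. The tissue mean of this percentile was 5.90 in blood, 5.29 in *Biceps femoris*, 4.88 in diaphragm and 4.34 to 4.71 in the others. By this measure 51 probes and 32 genes were above the reporters in at least 1 tissue, 19 genes in all 15 solid tissues and 8 in all 16 tissues. Each solid tissue had 25 to 30 of the 40 genes above the reporters, and blood had 9. ADAMTS20, MMP3, MMP13, MMP20, TIMP4, COL10A1, COL11A1 and COL17A1 were above them in no tissue by their brightest probe, and all 75 probes remain in the counts below. All 15 lists of marker genes with a tissue of their own were highest in that tissue, but neighbouring samples shared some of them. Adrenal cortex markers averaged 12.27 in cortex and 12.16 in medulla, and chromaffin markers 8.01 in cortex and 9.7 in medulla. Pituitary markers averaged 11.88 in adenohypophysis and 9.32 in neurohypophysis. The study names contamination between adrenal cortex and medulla as possible. The Large White male's pineal array and the *Biceps femoris* array of the Iberian female stood apart from the others of their tissue. DCN was at 6.37 on that pineal array and at 8.82, 9.94 and 9.45 on the other pineal arrays. LAMB1 was at 6.59 on that *Biceps femoris* array and at 8.62, 8.30 and 8.46 on the others.

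Levels differed among the 16 tissues for 74 of the 75 probes, and for 98.2% of all probes (limma, adjusted p under 0.05, the threshold of every call below). Of the 32 genes above the reporters somewhere, 13 were highest in abdominal fat, 4 in back fat, 5 in blood, 2 each in liver, thyroid gland and adrenal cortex, and 1 each in ileum, pineal gland, adenohypophysis and neurohypophysis. Of all probes 2.29% were highest in abdominal fat, 4.29% in back fat and 27.4% in blood. The map of the genes over the tissues shows the fats as a pair of warm columns through most classes.

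**Figure D1:**
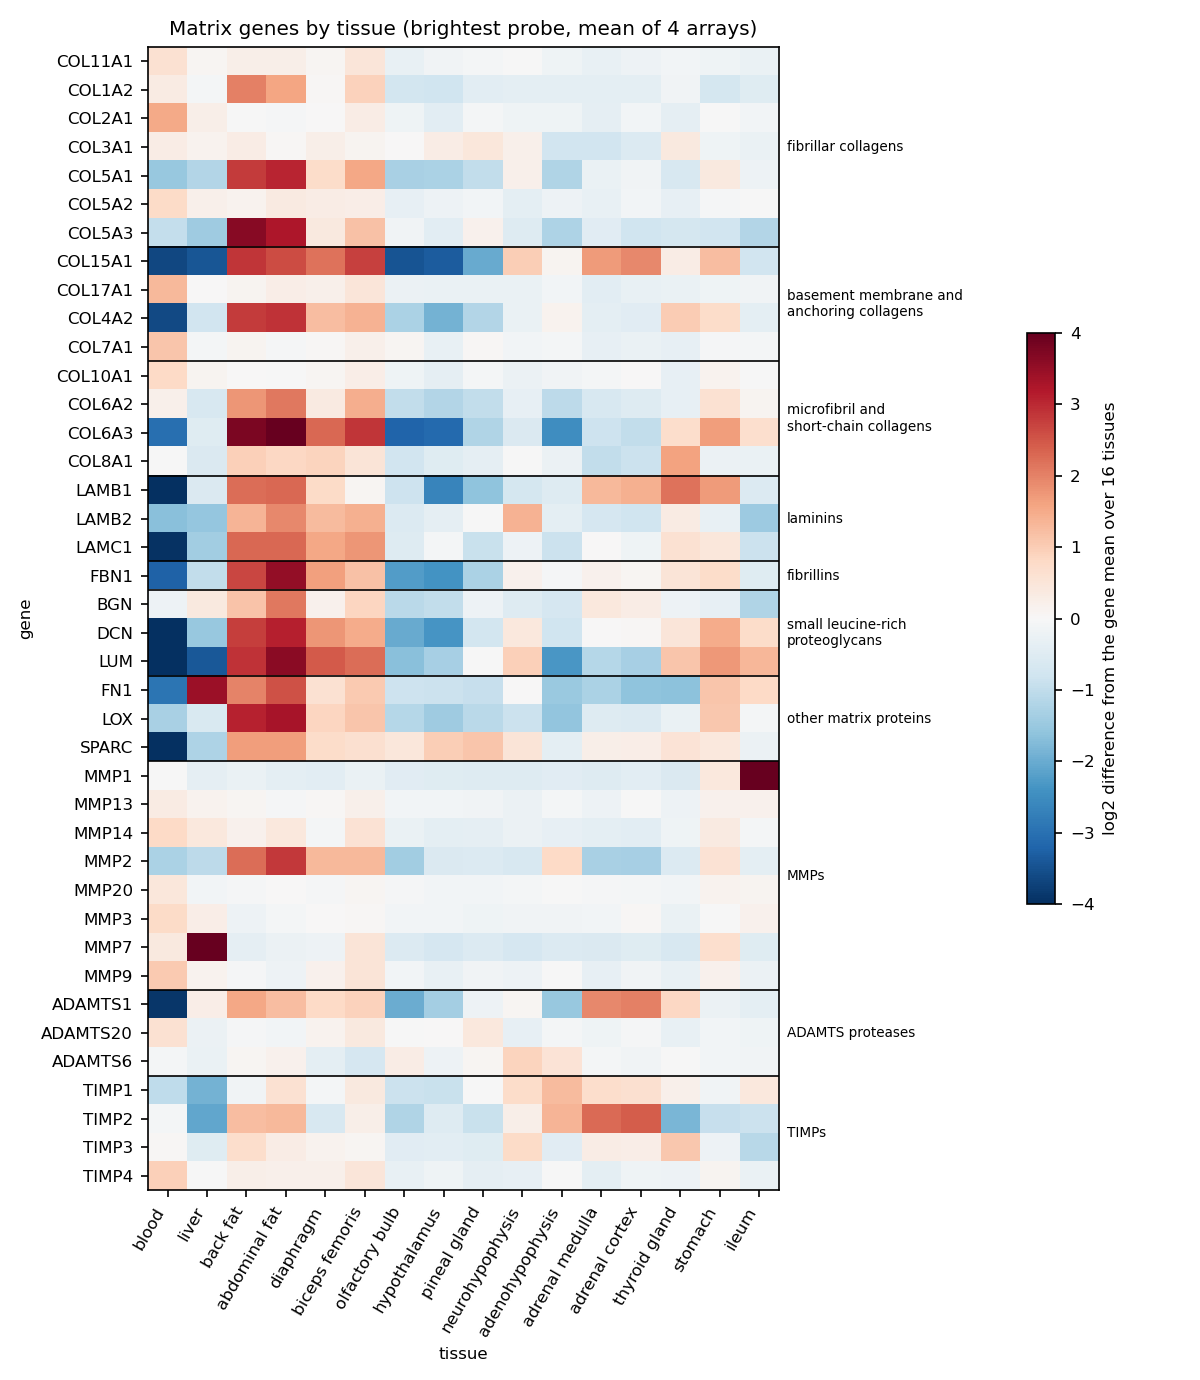
Difference of each tissue mean (4 arrays, brightest probe) from the mean of that gene over the 16 tissues, in log2 units on the colour scale, for the 40 genes (rows, grouped by class) and the 16 tissues (columns). Colours end at 4 units either way. The fats are warm for many genes from the collagens to SPARC, but near the gene mean for COL2A1, COL3A1 and COL10A1. MMP1 stands out in ileum, and MMP7 and FN1 stand out in liver.

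SPARC was high in every solid tissue and not above the reporters in blood. Its blood arrays were at 3.77, 4.20, 4.88 and 4.46 in the male and female Large White and the male and female Iberian pig, the order kept for every set of 4 values below. The 60 arrays of solid tissues lay between 10.36 and 13.67 with a median of 12.31. Blood and solid tissues were far from overlapping, and SPARC was at least 84.8-fold lower in blood (fitted difference -7.97 ± 0.12, SE, adjusted p = 4.9e-47). Where a group was not above the reporters, such a bound sets the mean of the brighter group against the mean of the dim one, with each dim array raised to its reporter percentile if below it. The fats came first (back fat 13.49 ± 0.09, abdominal fat 13.49 ± 0.19), followed by pineal gland (12.92 ± 0.04) and hypothalamus (12.78 ± 0.22). From diaphragm (12.55 ± 0.10) through *Biceps femoris*, thyroid gland, neurohypophysis, olfactory bulb, stomach and adrenal cortex to adrenal medulla (12.05 ± 0.19), neighbours in the order lay within their SD. Ileum (11.56 ± 0.09) and adenohypophysis (11.41 ± 0.16) came next, and liver (10.58 ± 0.20) was the lowest solid tissue. Another and dimmer probe of SPARC ran the other way, at 6.85 ± 0.28 in blood and 5.55 ± 0.28 in the solid tissues (adjusted p = 9.2e-18). Over the 15 solid tissues the gene whose means were most like those of SPARC was COL5A3, a chain of type V collagen (Pearson r = 0.81, Spearman 0.89), before LAMB2 (0.75), LAMC1 (0.74) and LUM (0.70). With blood among the tissues LAMC1 came first (0.82). These points share animals and arrays, and the correlations are descriptions.

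The other matrix genes given by name mostly shared the lead of the fats. Decorin was highest in abdominal fat (12.48 ± 0.29) and back fat (12.15 ± 0.25), then in diaphragm (11.15 ± 0.09), stomach (10.87 ± 0.43) and *Biceps femoris* (10.86 ± 0.36), which lay within their SD. Its lowest solid tissues were olfactory bulb (7.35 ± 0.47) and hypothalamus (7.02 ± 0.60). Lumican had small steps from abdominal fat (11.21 ± 0.25) over back fat (10.48 ± 0.48) and the muscles to olfactory bulb (5.93 ± 0.24), with adenohypophysis (5.25 ± 0.28) and liver (4.19 ± 0.52) below. Biglycan was highest in abdominal fat (10.19 ± 0.49) and lowest in ileum (6.88 ± 0.11), with blood in the middle at 7.89 ± 0.39. LOX, the enzyme that starts the cross-linking of collagen and elastin, was at 9.71 ± 0.73 in abdominal fat and 9.49 ± 0.19 in back fat, within their SD. *Biceps femoris* (7.51 ± 0.68), stomach (7.48 ± 0.45) and diaphragm (7.28 ± 0.33) followed with a gap, and adenohypophysis was lowest (4.82 ± 0.35). Fibronectin (FN1) was the exception, with liver first (12.83 ± 0.10), then abdominal fat (11.94 ± 0.31) and back fat (11.40 ± 0.46), and with thyroid gland (7.78 ± 0.91) the lowest solid tissue.

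**Figure D2:**
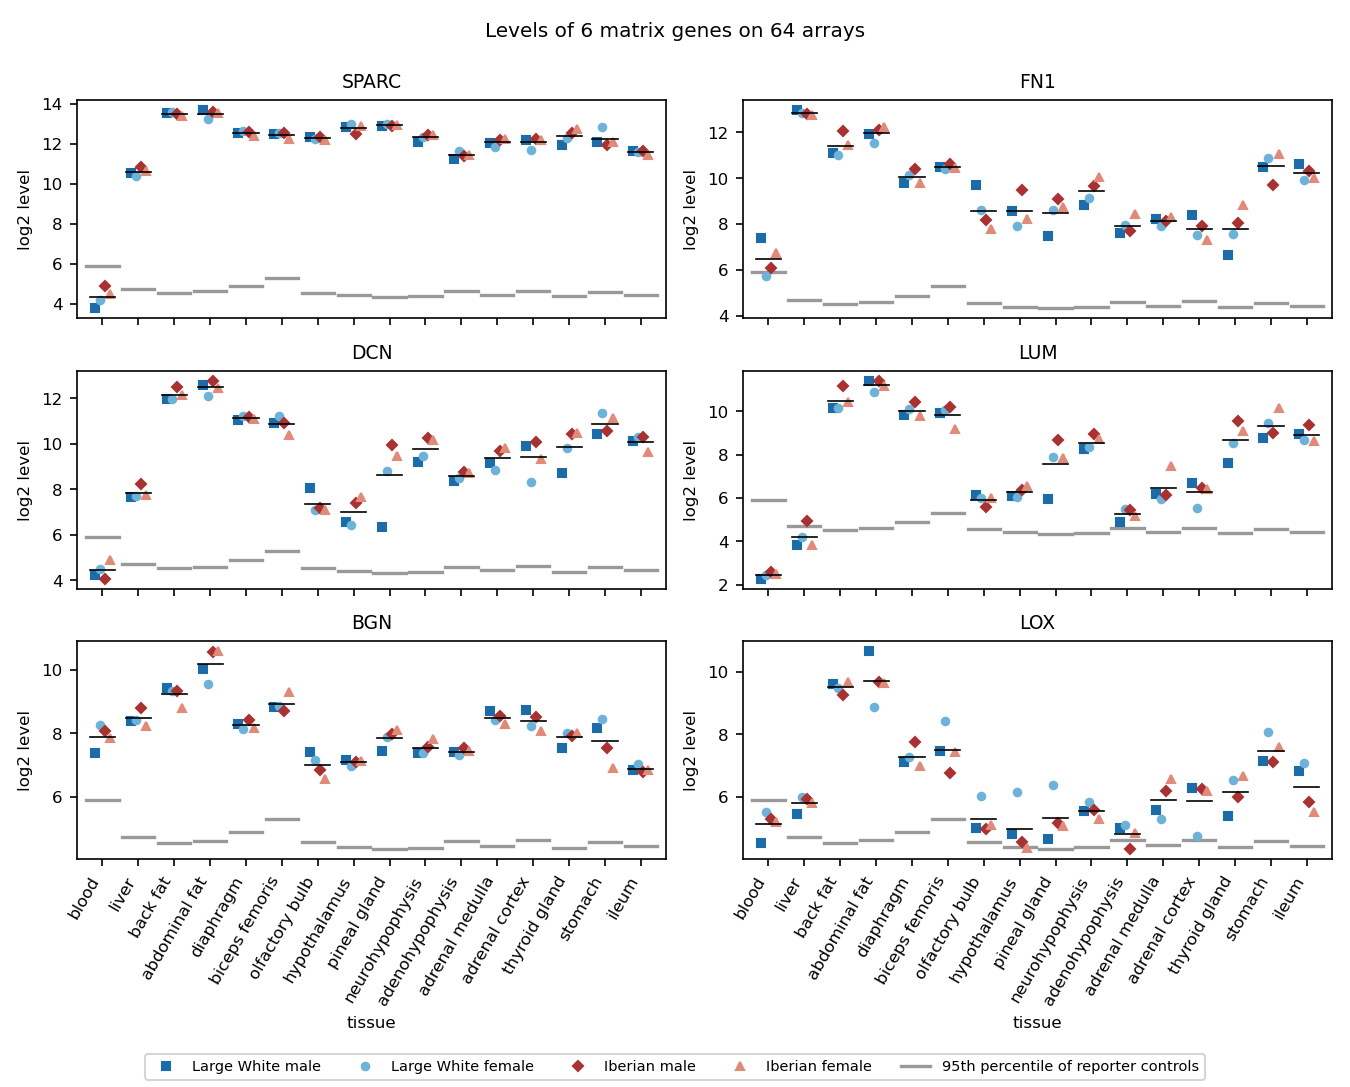
Level on each of the 64 arrays (y axis, log2) of SPARC, FN1, DCN, LUM, BGN and LOX in the 16 tissues (x axis), with a symbol per animal, a black line for the tissue mean and a grey line for the mean 95th percentile of the reporter controls. The means of SPARC, DCN, LUM and LOX lie below the grey line in blood, and 5 of the 6 genes are highest in a fat and FN1 in liver.

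The fats held most of the highest matrix levels. Against the 13 other solid tissues, the 8 arrays of back fat and abdominal fat had 42 of 75 probes higher and 2 lower (22.2% and 29% of all probes), and 27 of 40 genes higher and 1 lower (29.5% and 33.6% of the named genes). A difference of at least 1 log2 unit was reached upwards by 21 of the 40 genes, against 8.77% of the named genes. The median difference was 1.16 for the 40 genes and -0.04 for all named genes. For 10 genes every fat array lay above all 52 others (1.3% of the named genes), namely SPARC, LAMC1, MMP2, COL4A2, DCN, COL5A1, FBN1, LOX, COL5A3 and COL6A3. Tissues are mixtures, and fewer cells of a type and less RNA per cell cannot be told apart in such samples. The comparisons of a tissue with the other solid tissues share most of their arrays.

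COL6A3, a chain of type VI collagen, differed most. It was at 12.01, 11.68, 11.69 and 11.40 in back fat and at 12.12, 11.57, 11.96 and 12.02 in abdominal fat, and between 3.98 and 10.90 on the other arrays (median 7.41). The groups did not overlap, and the fats were 18.8-fold higher (difference 4.23 ± 0.20, adjusted p = 6.3e-25). COL5A3 was at 10.44, 10.09, 10.32 and 10.18 in back fat and at 9.85, 9.67, 9.82 and 10.08 in abdominal fat, and between 4.92 and 8.08 elsewhere (median 5.97). Again every fat array lay above the rest (difference 3.90 ± 0.12, adjusted p = 7.0e-32). LOX was at 9.60, 9.46, 9.24 and 9.67 in back fat and at 10.65, 8.86, 9.68 and 9.65 in abdominal fat, and between 4.33 and 8.41 elsewhere (median 5.96). The abdominal fat of the Large White male was the highest and that of the Large White female the lowest fat array, still above the rest (difference 3.58 ± 0.20, adjusted p = 8.4e-22).

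The classes took part to different degrees. All 3 laminins, all 3 small proteoglycans, FBN1, and each of FN1, LOX and SPARC were higher in the fats. So were 5 of 7 fibrillar collagens, 3 of 4 basement membrane and anchoring collagens, 3 of 4 microfibril and short-chain collagens, and 3 of 4 TIMPs. Among these COL11A1, COL17A1 and TIMP4 were not above the reporters in the fats. FBN1, fibrillin-1 of the microfibrils, averaged 11.79 ± 0.64 in the fats and 8.48 ± 1.23 in the other solid tissues (adjusted p = 2.9e-26). COL4A2, a chain of basement membrane collagen, averaged 11.11 ± 0.35 in the fats and 8.11 ± 1.04 in the others (adjusted p = 6.0e-24). LAMC1, the gamma chain shared by most laminins, averaged 10.63 ± 0.10 in the fats and 8.29 ± 0.94 in the others (adjusted p = 4.8e-26). The proteases took part least, with 2 of 8 MMPs higher and 1 lower, and 1 of 3 ADAMTS genes higher. MMP2, a gelatinase that also cuts type IV collagen, was among those higher, at 10.01 ± 0.40 in the fats and 7.19 ± 0.98 in the others (adjusted p = 7.4e-27). The gene called lower, MMP1, was at 2.78 ± 0.17 in the fats and not above the reporters there.

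Other genes of the matrix differed with them, in a comparison where 29.5% of the named genes were higher in the fats and 33.6% lower. Of 12 measured genes of collagen maturation, a list that also holds the SPARC relative SPARCL1, 10 were higher in the fats and 0 lower (median difference 1.16). PCOLCE2, an enhancer of procollagen cleavage, was at 10.43 ± 0.93 in the fats and 7.25 ± 1.29 in the other solid tissues (adjusted p = 4.3e-18). Of 22 other matrix glycoproteins and proteoglycans 18 were higher and 1 lower (median 1.63), with the microfibril protein MFAP5 at 11.26 ± 1.20 in the fats and 6.68 ± 1.70 in the others (adjusted p = 2.3e-22). Of 14 other matrix proteases and inhibitors 10 were higher and 2 lower (median 0.68), and of 12 matrix receptors 6 were higher and 2 lower (median 0.27). Of 5 measured fibroblast markers 4 were higher and 1 lower, and their mean level was 7.85 to 8.30 on the fat arrays and 5.82 to 7.52 on the others. All 7 endothelial markers were higher, with mean levels of 7.72 to 8.55 in the fats and 5.93 to 8.25 in the others. The fibroblast marker FAP is also in the list of other proteases. The part of these cell types in the matrix levels was not tested.

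**Figure D3:**
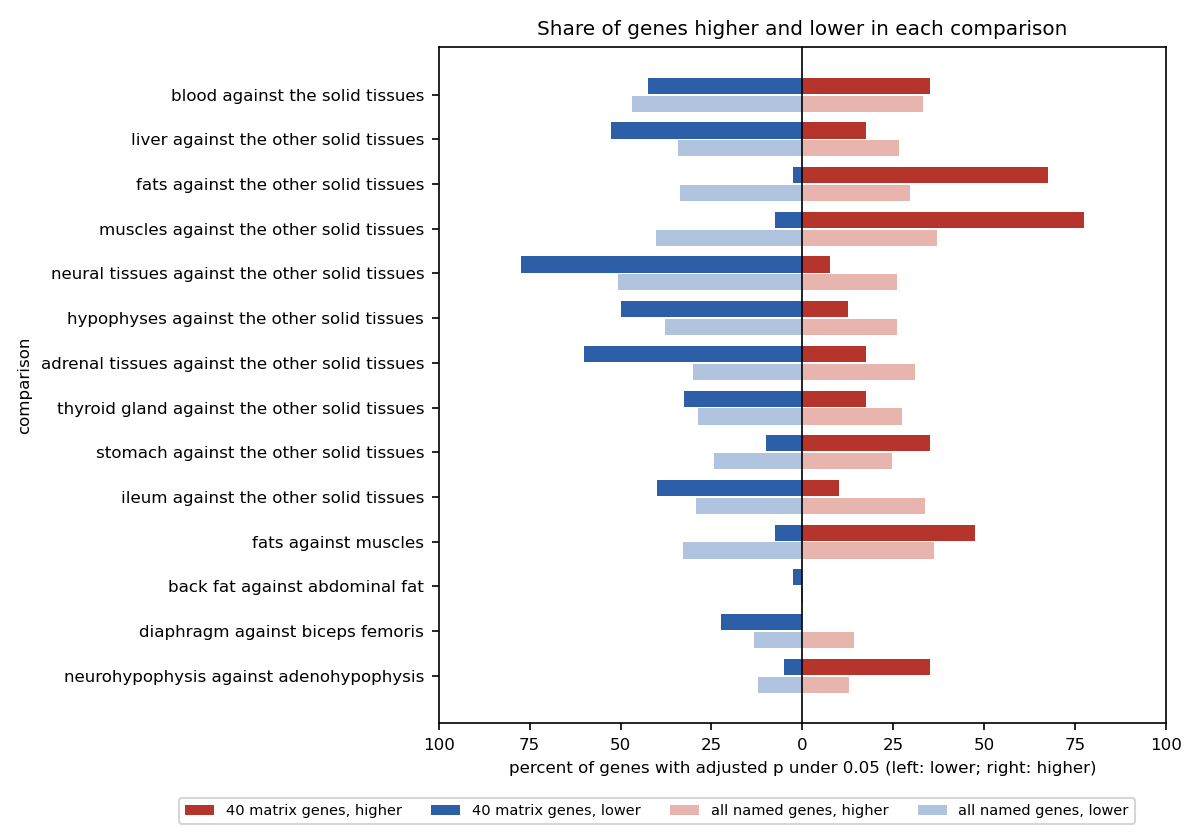
Percent of genes (x axis) called lower (left of 0) and higher (right of 0) in each of the 14 comparisons (y axis), for the 40 matrix genes (dark bars) and the 6765 named genes (pale bars), limma with adjusted p under 0.05. Of the matrix genes 27 were higher and 1 lower in the fats, and 3 were higher and 31 lower in the neural tissues.

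Between the fats little differed. Back fat against abdominal fat gave 1 of 75 probes higher and 1 lower (0.288% and 0.305% of all probes), and 0 of 40 genes higher and 1 lower (0.281% and 0.443% of the named genes). The gene was BGN, at 9.44, 9.34, 9.33 and 8.80 in back fat and at 10.03, 9.57, 10.57 and 10.59 in abdominal fat. The fats did not overlap (difference -0.96 ± 0.22, adjusted p = 0.021). The call was lost without the Large White male (difference -1.09), the Iberian female (-0.68) or the Iberian male (-0.87), on the natural logarithm of the log2 values, and with only these 8 arrays in the fit. The probe called higher in back fat was a dimmer one of LAMC1, at 7.59, 7.75, 8.07 and 7.90 in back fat and 6.98, 6.75, 6.40 and 7.0 in abdominal fat (adjusted p = 0.0019). Its call was lost without the Iberian male and on the natural logarithm, and the brightest probe of LAMC1 differed by 0.01 ± 0.19 (adjusted p = 1).

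Most matrix genes were also higher in muscles, by less than in the fats. Diaphragm and *Biceps femoris* together, against the 13 other solid tissues, had 57 of 75 probes higher and 5 lower (38% and 34.7% of all probes), and 31 of 40 genes higher and 3 lower (36.9% and 40.3% of the named genes). Of the 57 probes 24 were not above the reporters in either muscle, and of the 31 genes 9 were not. The median difference was 0.47 for the 40 genes and -0.04 for all named genes, and the reporters themselves were higher in muscles by a median of 0.32. Upwards 12 genes differed by at least 1 log2 unit, against 9.55% of the named genes. COL6A3 came first at 10.52 ± 0.33 in muscles and 7.77 ± 2.28 in the other solid tissues (adjusted p = 1.1e-17). COL15A1, a collagen of the basement membranes of muscle and capillaries, was at 10.44 ± 0.46 in muscles and 7.89 ± 2.27 in the others (adjusted p = 1.0e-20), and lumican at 9.94 ± 0.37 in muscles and 7.62 ± 2.10 in the others (adjusted p = 8.0e-17). The genes called lower were ADAMTS6 (-0.62 ± 0.08) and MMP1 (-0.39 ± 0.10), neither above the reporters in muscles, and TIMP2 (-0.25 ± 0.09). The call of TIMP2 was lost on the natural logarithm and without the Large White male (-0.14), where 3 probes were lower. All 7 endothelial markers were higher in muscles as well, with mean levels of 7.28 to 8.25 there and 5.93 to 8.55 in the others.

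Fats against muscles set these tissues side by side, with 29 of 75 probes higher and 13 lower (29% and 33.5% of all probes), and 19 of 40 genes higher and 3 lower (36.1% and 32.7% of the named genes). For 14 genes every fat array was above every muscle array, against 16% of the named genes. COL5A3 averaged 10.06 ± 0.26 in fats and 7.39 ± 0.56 in muscles (adjusted p = 4.0e-20). Its dimmer probes went the other way, by -0.54 and -0.49, at 4.57 ± 0.20 and 4.0 ± 0.23 in fats and 5.11 ± 0.43 and 4.49 ± 0.56 in muscles. LOX averaged 9.60 ± 0.51 in fats and 7.39 ± 0.51 in muscles (adjusted p = 3.0e-10). LAMB1, a laminin beta chain, averaged 10.19 ± 0.39 in fats and 8.34 ± 0.77 in muscles (adjusted p = 3.5e-08). COL5A1 averaged 10.77 ± 0.36 in fats and 8.99 ± 0.50 in muscles (adjusted p = 2.3e-15), again with dim probes that ran the other way. Of the genes of basement membranes, COL4A2 averaged 11.11 ± 0.35 in fats and 9.57 ± 0.34 in muscles (adjusted p = 1.7e-09). LAMC1 was at 10.63 ± 0.10 in fats and 9.99 ± 0.24 in muscles (adjusted p = 6.0e-05), with 3 dimmer probes that differed by 1.67, 0.97 and 0.95. LAMB2 (0.31 ± 0.16, adjusted p = 0.089) and COL15A1 (0.27 ± 0.20, adjusted p = 0.24) had no call. The genes lower in fats were MMP9 (-0.47 ± 0.11), MMP7 (-0.45 ± 0.19) and ADAMTS20 (-0.34 ± 0.09), none above the reporters in the fats or the muscles. MMP7 lost its call after quantile normalization (-0.34), without the Large White male (-0.47), the Iberian female (-0.35) or the Iberian male (-0.44), and without the Iberian female's *Biceps femoris* array (-0.42). Of the 13 probes lower in fats 12 were above the reporters in neither group, and without the Iberian female 8 were lower. Reporters were also lower in fats, by a median of -0.31. The fibroblast markers had mean levels of 7.85 to 8.30 in fats and 7.06 to 7.50 in muscles.

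**Figure D4:**
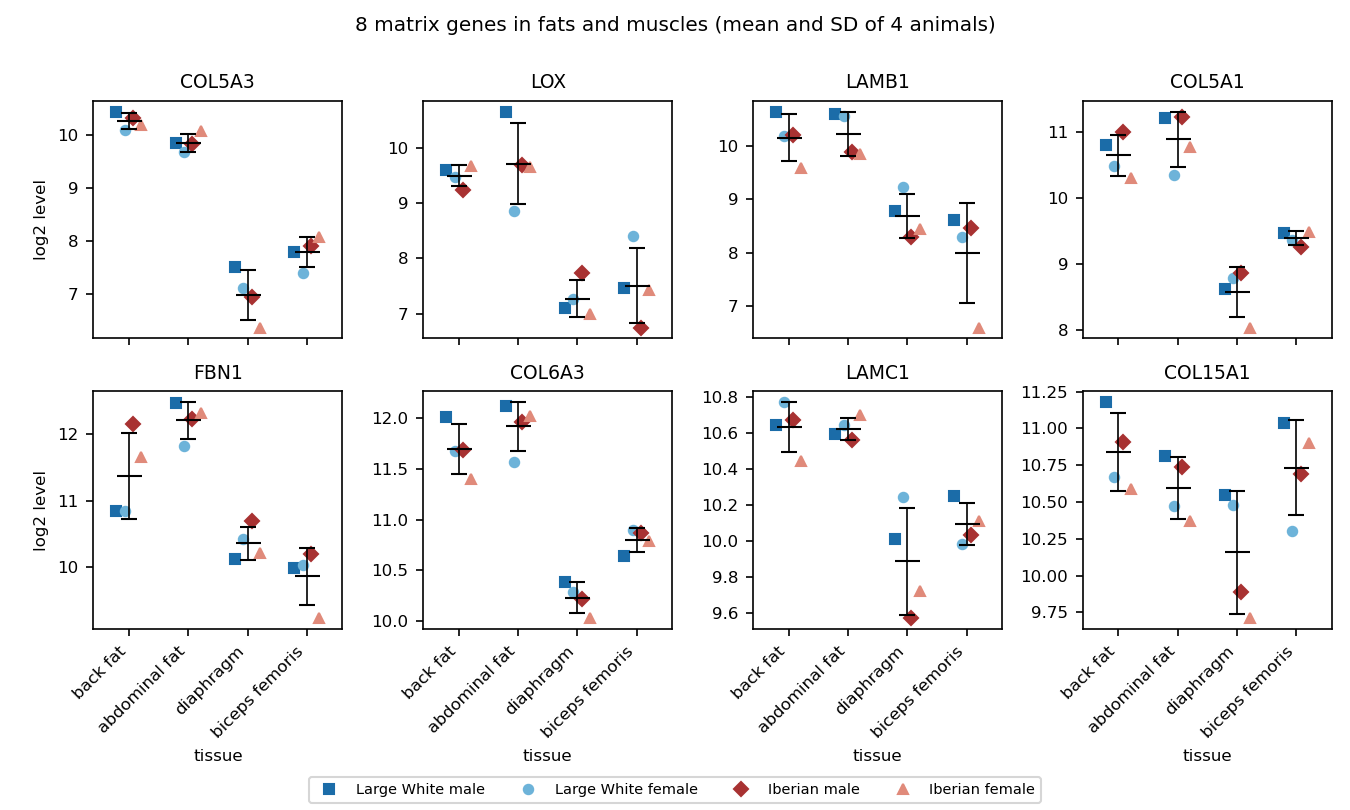
Level (y axis, log2) of 8 matrix genes in back fat, abdominal fat, diaphragm and *Biceps femoris* (x axis), with a point per animal and the mean ± SD of the 4 animals in black. COL5A3, LOX, LAMB1, COL5A1, FBN1, COL6A3 and LAMC1 have higher means in both fats than in both muscles, and COL15A1 overlaps.

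Between the muscles, diaphragm against *Biceps femoris* gave 0 of 75 probes higher and 16 lower (12.1% and 13.1% of all probes), and 0 of 40 genes higher and 9 lower (14.1% and 13.3% of the named genes). COL6A2, another chain of type VI collagen, was at 7.77, 7.74, 7.48 and 7.55 in diaphragm and at 8.69, 8.48, 8.56 and 9.15 in *Biceps femoris*. The muscles did not overlap (difference -1.09 ± 0.18, adjusted p = 2.0e-05). TIMP2 was at 8.45, 8.89, 9.01 and 8.40 in diaphragm and at 9.10, 9.35, 9.79 and 10.07 in *Biceps femoris*, also without overlap (difference -0.88 ± 0.18, adjusted p = 1.9e-04). COL1A2, of the main collagen of tendon and bone, and COL5A1 differed by -0.87 ± 0.23 and -0.81 ± 0.21 (adjusted p = 0.004 and 0.003). Without the Iberian female 4 probes were lower, and without its *Biceps femoris* array 11. With only the arrays of the muscles in the fit the number was 0 (18 at an unadjusted p under 0.05, limma). Upwards 0 probes reached an unadjusted p under 0.05. Of the 16 lower probes 6 were above the reporters in neither muscle, and of the 9 lower genes 2 were not above them in diaphragm. The reporters differed by a median of -0.22 between the same muscles.

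In blood SPARC, decorin, lumican and the laminins were far below their levels in the solid tissues. Against the solid tissues blood had 37 of 75 probes higher and 24 lower (43.5% and 35% of all probes), and 14 of 40 genes higher and 17 lower (33.2% and 46.9% of the named genes). The median difference was -0.05 for the 40 genes and -0.20 for all named genes. All 17 lower genes had fitted differences of at least 1 log2 unit, against 24.1% of the named genes. Of the 17 genes 15 were not above the reporters in blood. With each dim array raised to the reporter percentile, 13 of these 15 still differed by at least 1 unit. Lumican was at 2.28, 2.44, 2.60 and 2.50 in blood and between 3.82 and 11.41 in the solid tissues (median 8.42), without overlap (at least 4.1-fold lower, fitted difference -5.48 ± 0.24, adjusted p = 1.7e-26). Decorin was at 4.25, 4.52, 4.08 and 4.90 in blood and between 6.37 and 12.78 in the solid tissues (median 9.87), also without overlap (at least 14-fold lower, fitted difference -5.26 ± 0.28, adjusted p = 3.0e-23). The laminins LAMB1, LAMC1 and LAMB2 were lower by at least 5.04-fold, 6.53-fold and 2.94-fold. Of the 37 probes higher in blood 33 were not above the reporters there, and the reporters were themselves higher in blood by a median of 0.50. The largest positive differences were those of COL2A1 of cartilage, COL17A1 of hemidesmosomes and COL7A1 of the anchoring fibrils of skin. COL2A1 was at 8.19, 8.41, 8.19 and 8.27 in blood and between 6.10 and 7.40 in the solid tissues, without overlap (difference 1.6 ± 0.09, adjusted p = 5.4e-23). Over the solid tissues its means were most like those of COL10A1 (Pearson r = 0.89), a gene above the reporters in no tissue. The part of background in the COL2A1 signal was not tested. COL17A1 was at 5.82 ± 0.09 in blood and 4.42 ± 0.29 in the solid tissues and above the reporters in no tissue, and COL7A1 was at 6.06 ± 0.22 in blood and 4.87 ± 0.24 in the solid tissues. Of the 12 genes of collagen maturation 10 were lower in blood and 1 higher, and of 5 fibroblast markers 4 were lower and 1 higher.

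Liver was low in most matrix genes, above all other tissues in fibronectin, and on average far above them in MMP7. Against the 14 other solid tissues it had 12 of 75 probes higher and 31 lower (22.5% and 29% of all probes), and 7 of 40 genes higher and 21 lower (26.5% and 34.2% of the named genes). Fibronectin, whose plasma form is secreted by hepatocytes, was at 12.95, 12.85, 12.78 and 12.72 in liver and between 6.65 and 12.24 in the other solid tissues (median 9.32). Liver lay above all of them (difference 3.45 ± 0.26, adjusted p = 1.4e-16), with abdominal fat next at 11.94 ± 0.31. MMP7, matrilysin, which is known from glandular epithelia, was at 8.50, 6.23, 8.24 and 9.27 in liver and between 2.68 and 5.31 elsewhere (median 3.13). The Large White female was low among the livers and still above every other solid array, and liver was at least 11-fold higher on average (fitted difference 4.78 ± 0.20, adjusted p = 1.5e-27). MMP7 was above the reporters in no other tissue. MMP14, the membrane-bound activator of MMP2, was higher by 0.50 ± 0.11 (adjusted p = 2.1e-04). Lumican was at 3.82, 4.18, 4.93 and 3.83 in liver and had a median of 8.66 elsewhere (at least 11.2-fold lower, adjusted p = 1.3e-20), and COL15A1 was at 5.04, 4.41, 4.32 and 4.45 in liver with a median of 9.29 elsewhere (at least 12.5-fold lower, adjusted p = 1.2e-22). Inhibitors were low in liver too. TIMP1 was at 6.10, 5.91, 6.21 and 5.96, below all 56 other solid arrays, which started at 6.69 (difference -2.10 ± 0.18, adjusted p = 4.1e-15). TIMP2 averaged 7.27 ± 0.16 in liver and 9.50 ± 1.33 in the others (adjusted p = 2.6e-21).

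Ileum held the other protease with a tissue of its own. MMP1, interstitial collagenase, was at 8.60, 8.22, 8.94 and 7.32 in ileum and between 2.42 and 3.93 in the 14 other solid tissues (median 2.69). Ileum was the only tissue above the reporters and lay at least 12.7-fold above the others (fitted difference 5.53 ± 0.13, adjusted p = 2.1e-37). MMP3, stromelysin, differed by probe. Its brightest probe was above the reporters in no tissue, whereas another was at 5.76, 6.05, 5.94 and 5.76 in ileum and at 2.92, 2.89, 3.44 and 5.19 in stomach, the highest of the other solid tissues by mean, and a further one was at 5.55, 5.52, 5.67 and 5.48 in ileum. Otherwise ileum had more members lower than higher, with 8 of 75 probes higher and 25 lower (23.3% and 28% of all probes), and 4 of 40 genes higher and 16 lower (33.8% and 29.2% of the named genes). Without the Large White female 5 probes were higher. LAMB2, a laminin beta chain of muscle, nerve and kidney, averaged 5.97 ± 0.33 in ileum and 7.64 ± 1.07 in the others (adjusted p = 2.9e-12). COL5A3 (-1.34 ± 0.17) and BGN (-1.29 ± 0.16) followed. Lumican was higher by 1.04 ± 0.24 (adjusted p = 2.3e-04), and fibronectin by 0.64 ± 0.26 (adjusted p = 0.037), a call that was lost without the Large White male (0.47), the Large White female (0.69) or the Iberian male (0.66). All 7 endothelial markers were lower in ileum, with mean levels of 6.0 to 6.19 there and 5.93 to 8.55 in the others. Of 5 fibroblast markers 2 were higher and 1 lower, with mean levels of 7.17 to 7.47 in ileum and 5.82 to 8.30 in the others. The part of these cell types was not tested.

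Stomach had more members higher than lower, with 23 of 75 probes higher and 7 lower (19.7% and 22.2% of all probes), and 14 of 40 genes higher and 4 lower (24.6% and 24.4% of the named genes). Of the 23 higher probes 7 were not above the reporters in stomach, and of the 14 higher genes 2 were not. COL6A3 averaged 9.60 ± 0.87 in stomach and 8.04 ± 2.36 in the other solid tissues (adjusted p = 3.7e-06), and LAMB1 9.64 ± 0.15 in stomach and 8.13 ± 1.57 in the others (adjusted p = 9.7e-06). Lumican was at 8.77, 9.47, 8.99 and 10.13 in stomach and had a median of 8.05 in the others (adjusted p = 7.9e-07). By their brightest probe 0 of 7 fibrillar collagens were higher in stomach and 2 lower, with COL1A2 at 6.73 ± 0.41 in stomach and 7.45 ± 0.88 in the others (adjusted p = 3.7e-04) and COL5A3 at a difference of -0.87 ± 0.17. Other probes of fibrillar collagens were called higher, namely 1 of COL5A1 (0.44 ± 0.17, adjusted p = 0.033) and 1 of COL2A1 (0.36 ± 0.11, adjusted p = 0.0072), and 1 of COL11A1 that was not above the reporters (0.48 ± 0.14, adjusted p = 0.0036). Of 4 smooth muscle and pericyte markers 3 were higher in stomach, their mean level being 9.36 to 10.83 there and 5.94 to 10.29 in the others. In ileum the same level was 9.08 to 10.02, although both samples are described as epithelium, and its part in the matrix levels was not tested.

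**Figure D5:**
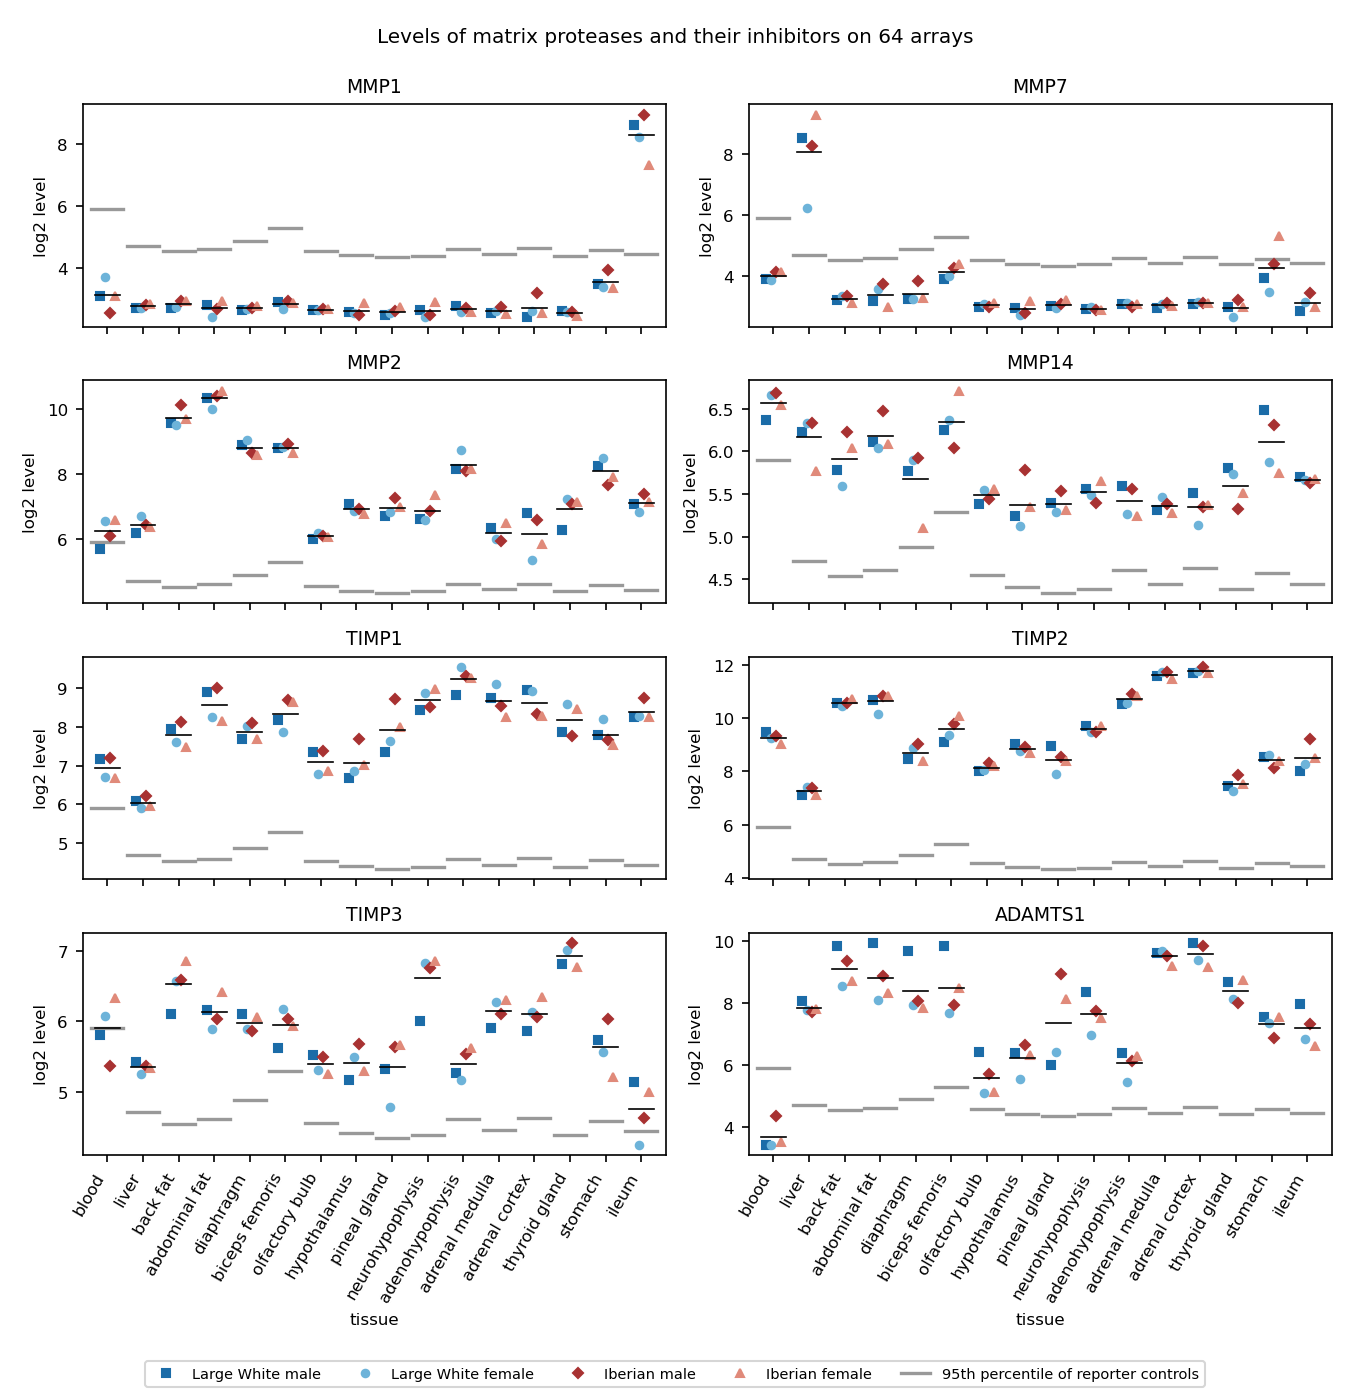
Level on each of the 64 arrays (y axis, log2) of MMP1, MMP7, MMP2, MMP14, TIMP1, TIMP2, TIMP3 and ADAMTS1 in the 16 tissues (x axis), with a symbol per animal, a black line for the tissue mean and a grey line for the mean 95th percentile of the reporter controls. The mean of MMP1 exceeds the grey line in ileum and that of MMP7 in liver, TIMP2 is highest in the adrenal tissues, and ADAMTS1 of the Large White male lies above the other animals in the fats and muscles.

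The TIMPs had orders of their own. TIMP2, which inhibits MMPs and also takes part in the activation of MMP2, was at 11.69, 11.77, 11.92 and 11.68 in adrenal cortex and at 11.57, 11.73, 11.71 and 11.47 in adrenal medulla. The other solid tissues lay between 7.13 and 10.88, all below both adrenal tissues (difference 2.70 ± 0.09, adjusted p = 1.8e-30). Another probe of TIMP2 was also higher there, by 2.35 ± 0.14. By the brightest probe adenohypophysis (10.70 ± 0.18), abdominal fat (10.63 ± 0.32) and back fat (10.57 ± 0.11) came next and lay within their SD. Thyroid gland (7.53 ± 0.25) and liver (7.27 ± 0.16) came last. By the other probe adenohypophysis (8.64 ± 0.18) was below abdominal fat (10.43 ± 0.26) and back fat (9.87 ± 0.31). TIMP1 was highest in adenohypophysis at 8.80, 9.54, 9.30 and 9.25. From neurohypophysis (8.69 ± 0.27) to stomach (7.79 ± 0.30) its neighbours in the order lay within their SD, and olfactory bulb (7.09 ± 0.32), hypothalamus (7.06 ± 0.43), blood (6.94 ± 0.29) and liver were lowest. TIMP3, which stays bound to the matrix, was at 6.82, 7.01, 7.12 and 6.78 in thyroid gland, at 6.61 ± 0.41 in neurohypophysis and 6.54 ± 0.31 in back fat, and lowest in ileum (4.75 ± 0.40). TIMP4 had tissue means of 2.90 to 4.23, none above the reporters.

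Adrenal tissues were otherwise low, with 10 of 75 probes higher and 38 lower (23.2% and 26.9% of all probes), and 7 of 40 genes higher and 24 lower (31% and 30.1% of the named genes). Of the 38 lower probes 5 were above the reporters in neither group, and of the 24 lower genes 9 were above them in no adrenal tissue. Besides TIMP2, ADAMTS1, which cuts large proteoglycans such as versican, was at 9.93, 9.37, 9.82 and 9.14 in cortex and at 9.61, 9.66, 9.50 and 9.18 in medulla, and averaged 7.55 ± 1.23 in the others (adjusted p = 1.8e-11). COL15A1 averaged 9.81 ± 0.17 in adrenal tissues and 7.99 ± 2.37 in the others (adjusted p = 9.0e-15). Fibronectin averaged 7.96 ± 0.38 in adrenal tissues and 9.86 ± 1.61 in the others (adjusted p = 3.6e-12). Lumican (-1.82 ± 0.18) and MMP2 (-1.61 ± 0.12) were next in the negative direction. In the thyroid gland, whose follicles lie on basement membranes, there were 14 of 75 probes higher and 22 lower (22.1% and 25.1% of all probes), and 7 of 40 genes higher and 13 lower (27.5% and 28.8% of the named genes). Without the Iberian male 13 probes were lower. Of the 22 lower probes 3 were above the reporters in neither group, and of the 13 lower genes 5 were not above them in thyroid gland. LAMB1 averaged 10.09 ± 0.33 there and 8.10 ± 1.53 in the others (adjusted p = 3.0e-08). COL8A1, a short-chain collagen known from vessels and the cornea, was at 6.59, 7.87, 6.89 and 6.75 in thyroid gland and averaged 5.32 ± 0.74 in the others (adjusted p = 7.9e-09), with the Large White female high. TIMP3 was higher by 1.17 ± 0.14 (adjusted p = 3.7e-10). TIMP2 (-1.96 ± 0.13), FN1 (-1.96 ± 0.26) and COL5A3 (-0.83 ± 0.17) had the largest negative differences.

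The neural tissues, olfactory bulb, hypothalamus and pineal gland, had low levels of most matrix genes. Against the 12 other solid tissues they had 4 of 75 probes higher and 53 lower (26.2% and 40.8% of all probes), and 3 of 40 genes higher and 31 lower (26% and 50.6% of the named genes). The median difference was -0.64 for the 40 genes and -0.17 for all named genes. Of the 53 lower probes 8 were above the reporters in neither group. Of the 31 lower genes 6 were above them in no neural tissue. With each dim array raised to the reporter percentile, 0 of these 6 differed by at least 1 unit. COL15A1 was at 4.94, 4.49, 4.38 and 4.30 in olfactory bulb, at 4.63, 4.38, 4.71 and 4.94 in hypothalamus and at 4.35, 6.11, 7.05 and 6.31 in pineal gland. The pineal arrays except that of the Large White male were above those of olfactory bulb and hypothalamus, and the 48 other arrays had a median of 9.46 (difference -3.98 ± 0.13, adjusted p = 4.5e-32). COL6A3 averaged 5.44 ± 1.24 in neural tissues and 8.81 ± 2.02 in the others (adjusted p = 3.0e-24), and FBN1 6.74 ± 0.69 in neural tissues and 9.47 ± 1.29 in the others (adjusted p = 3.1e-26). All 3 laminins, all 3 small proteoglycans and all 4 TIMPs were lower by their brightest probe, though that of TIMP4 was above the reporters in no tissue. The other probe of TIMP2 was higher by 0.65 ± 0.12 (adjusted p = 2.7e-06). SPARC ran against the rest at 12.65 ± 0.32 in neural tissues and 12.21 ± 0.81 in the others (adjusted p = 7.9e-07), although its dim probe differed by -0.15. Pineal gland and hypothalamus held this lead, whereas olfactory bulb lay between neurohypophysis (12.32 ± 0.16) and stomach (12.22 ± 0.40). COL3A1, the collagen of reticular fibres, was higher by 0.34 ± 0.08 (adjusted p = 2.9e-04), and so was ADAMTS20 by 0.23 ± 0.06, below the reporters. Of the 12 genes of collagen maturation 11 were lower and 1 higher, SPARCL1 being at 12.91 ± 0.24 in neural tissues and 10.57 ± 1.32 in the others (adjusted p = 7.0e-22). Of 5 fibroblast markers 3 were lower and 1 higher, with mean levels of 5.84 to 6.48 in neural tissues and 5.82 to 8.30 in the others. Without the array of the pineal gland from the Large White male 50 probes were lower.

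The lobes of the hypophysis differed from each other. Both together, against the other solid tissues, had 5 of 75 probes higher and 38 lower (24.2% and 29.9% of all probes), and 5 of 40 genes higher and 20 lower (26% and 37.7% of the named genes). Of the 38 lower probes 5 were above the reporters in neither group, and of the 20 lower genes 4 were above them in neither lobe. COL6A3 (-2.0 ± 0.20), LOX (-1.51 ± 0.20) and lumican (-1.19 ± 0.18) had the largest negative differences. TIMP1 averaged 8.95 ± 0.39 in the hypophyses and 7.87 ± 0.80 in the others (adjusted p = 3.6e-10), and ADAMTS6 5.71 ± 0.37 in the hypophyses and 4.88 ± 0.29 in the others (adjusted p = 1.6e-12). TIMP2 was higher by 0.92 ± 0.09 with its brightest probe and differed by -0.01 ± 0.14 with the other, which was not called. Neurohypophysis against adenohypophysis gave 18 of 75 probes higher and 3 lower (10.3% and 9.46% of all probes), and 14 of 40 genes higher and 2 lower (12.9% and 12.3% of the named genes). Lumican was at 8.24, 8.33, 8.94 and 8.71 in neurohypophysis and at 4.88, 5.49, 5.44 and 5.17 in adenohypophysis. The lobes did not overlap, and 1 of the 4 adenohypophysis arrays was not above the reporters (at least 9.8-fold, fitted difference 3.31 ± 0.33, adjusted p = 1.3e-11). COL6A3 was at 7.08, 7.0, 7.36 and 7.94 in neurohypophysis and at 5.58, 5.38, 5.39 and 5.49 in adenohypophysis (adjusted p = 8.9e-05). LAMB2 was at 8.53, 8.96, 8.75 and 9.02 in neurohypophysis and at 7.12, 7.16, 6.77 and 7.07 in adenohypophysis (adjusted p = 2.1e-08). Neither overlapped between the lobes. ADAMTS1 averaged 7.64 ± 0.58 in neurohypophysis and 6.04 ± 0.42 in adenohypophysis (adjusted p = 0.0018). MMP2 ran the other way, at 6.61, 6.59, 6.86 and 7.34 in neurohypophysis and at 8.15, 8.72, 8.08 and 8.14 in adenohypophysis (adjusted p = 1.4e-06). TIMP2 averaged 9.59 ± 0.12 in neurohypophysis and 10.70 ± 0.18 in adenohypophysis by its brightest probe (adjusted p = 2.2e-06), and 9.60 ± 0.20 in neurohypophysis and 8.64 ± 0.18 in adenohypophysis by the other (adjusted p = 0.0042), so no direction is given for it. Endothelial markers had mean levels of 6.59 to 7.19 in neurohypophysis and 6.03 to 6.38 in adenohypophysis, and their part was not tested.

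A probe whose 4 arrays of a tissue all lie above, or all below, the 60 other arrays was called extreme there. Outside blood 9 members were extreme and above. They were COL5A3 and a probe of LAMC1 in back fat (0.192% of all probes), BGN in abdominal fat (0.0836%), MMP7 and 2 probes of FN1 in liver (2.88%), and MMP1 and 2 probes of MMP3 in ileum (2.21%). TIMP1 and a probe of TIMP2 were extreme and below in liver (0.551%). COL5A3 entered narrowly, with a lowest back fat array of 10.09 and a highest other array of 10.08. In blood 8 members were above and 9 below (8.43% and 5.03%), and 5 of those above were not above the reporters there. Over the 15 solid tissues the likest pairs of genes by their means were COL4A2 with FBN1, COL5A1 with COL6A2 and COL6A2 with LOX (Pearson r = 0.97 each), then DCN with FBN1 (0.96).

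Breed and sex gave no calls with the animals as units, 0 of 75 probes for Large White against Iberian (0.0919% of all probes) and 0 for male against female (0.0627%) in limma. At an unadjusted p under 0.05 there were 8 and 1 (13.2% and 3.64% of all probes), and with the 64 arrays as replicates 7 and 1 (12.7% and 1.45%). The smallest p for breed belonged to COL3A1 (Large White minus Iberian 0.37 ± 0.06, adjusted p = 0.22), COL4A2 (0.35, adjusted p = 0.23) and DCN (-0.42, adjusted p = 0.25). COL3A1 averaged 6.09 and 6.19 over the tissues of the Large White male and female, and 5.79 and 5.77 over those of the Iberian male and female. The smallest p for sex belonged to ADAMTS1 (male minus female 0.55, adjusted p = 1), LOX (-0.22) and a probe of COL5A2 (0.14). ADAMTS1 averaged 7.99 and 7.67 in the Large White and Iberian males, and 7.13 and 7.44 in the Large White and Iberian females. In the Large White male it was at 9.84 in back fat, 9.93 in abdominal fat, 9.65 in diaphragm and 9.81 in *Biceps femoris*, above the other animals in each. With 2 animals against 2 an exact permutation test cannot go below p = 0.333.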

How the data were processed

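The authors deposited log2 values, made by robust multi-array analysis (RMA) in libaffy over all 64 arrays together from signals read with GCOS, after quality control with the Affy package. Tool versions were not given in the sources used here. Every column matched 1 sample (0 did not), each of the 16 tissues had 1 array per animal, and the number of arrays limits the precision. RMA makes the values relative to all arrays, blood included.

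188 control probe sets were left out and the 23935 other probes were fitted together in limma 3.58.1 (R 4.3.3, Python 3.11.15) with tissue, breed and sex, the design of the study. P-values were adjusted by Benjamini-Hochberg over all probes. Breed and sex were tested on the means of the 4 animals. Same-numbered samples come from the same animal (480 pairs, mean correlation of deviations 0.189, 385 above 0.1). The platform annotation gave 1 symbol for 10069 probes, several for 198 and none for 13668, and the 75 members were all found in RefSeq by their Entrez identifier. Scripts were tested on simulated data.

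Members and lists were chosen with earlier results of these data known, and the reporter scale after seeing the data. Named were SPARC, FN1, DCN, LUM, BGN, LOX and the TIMPs, the leading members each way per comparison (3 or 4), of each class, and for breed and sex, and extreme probes. Alternatives covered the covariates, the animal as a block, the scale, the variance prior, filters on dim probes, quantile normalization, left-out animals and arrays, the arrays fitted, and blood among the other tissues.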

Additional observations from a re-analysis of the deposited data

Results flagged for a closer look

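Within a tissue, 1 of the 4 arrays stood far from the other 3 in 13 cases among the genes given by name and the leading members, and 1 of 8 arrays did over the fats together. Altogether 210 groups were examined for such a gap, and chance gives about 1 in 20.

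SPARC was lowest in the adrenal cortex of the Large White female, at 11.67 against 12.19 for the nearest array, and LOX was lowest there as well, at 4.76 against 6.20. SPARC was lowest in the *Biceps femoris* of the Iberian female (12.25, nearest 12.50), an array that stood apart in general, and highest in the stomach of the Large White female (12.81, nearest 12.08). Decorin was highest in the olfactory bulb of the Large White male (8.05, nearest 7.18) and in the liver of the Iberian male (8.24, nearest 7.76). Lumican was highest in the adrenal medulla of the Iberian female (7.47, nearest 6.18). BGN was lowest in the back fat of the same animal (8.80, nearest 9.33), 1 of the 3 animals without which BGN lost its call between the fats. LOX was highest in the olfactory bulb of the Large White female (6.04, nearest 5.11), and highest over both fats in the abdominal fat of the Large White male (10.65, nearest 9.68). TIMP1 was highest in the ileum of the Iberian male (8.74, nearest 8.28), TIMP3 lowest in the neurohypophysis of the Large White male (6.0, nearest 6.76), and TIMP4 highest in the adrenal cortex of the Large White male (3.54, nearest 3.03), where it was not above the reporters. MMP14 was lowest in the liver of the Iberian female (5.77, nearest 6.23).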

How the results depend on the processing

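Counts below are of member probes, with the count given in the report in brackets. With only probes above the median level (32 members tested), blood had 4 (37) higher, liver 4 (12) higher, fats 0 (2) lower, muscles 27 (57) higher and 2 (5) lower, neural tissues 29 (53) lower, hypophyses 22 (38) lower, adrenal tissues 18 (38) lower, thyroid gland 9 (14) higher and 9 (22) lower, stomach 14 (23) higher, ileum 3 (8) higher, fats against muscles 0 (13) lower, back fat against abdominal fat 0 (1) higher and diaphragm against *Biceps femoris* 9 (16) lower, and 32 (74) differed among tissues. These counts come from fewer probes tested. In this setting 0 and 1 probes were lower at an unadjusted p under 0.05 in fats and in fats against muscles, and 2 higher in back fat against abdominal fat (limma). With only probes above the reporters (51 tested, chosen after seeing the data), blood had 14 (37) higher, liver 7 (12) higher, and fats against muscles 4 (13) lower. On the natural logarithm back fat against abdominal fat had 0 (1) higher and 0 (1) lower, with 2 and 4 at an unadjusted p under 0.05.

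Without 1 animal at a time the lower counts were 3 to 6 (5) in muscles, 13 to 21 (22) in thyroid gland, 8 to 13 (13) in fats against muscles, 0 to 1 (1) in back fat against abdominal fat and 4 to 16 (16) in diaphragm against *Biceps femoris*, and the higher counts 5 to 8 (8) in ileum and 0 to 1 (1) in back fat against abdominal fat. With only the arrays compared, 2 (1) were lower in back fat against abdominal fat, 0 (16) in diaphragm against *Biceps femoris* and 5 (3) in neurohypophysis against adenohypophysis. With blood among the other tissues 5 (2) were lower in fats. With 64 arrays as replicates breed had 7 (0) and sex 1 (0). With a gap of over 0.5 log2 units 1 (8) was extreme and above in blood and 0 (2) below in other tissues, and without both arrays that stood apart 12 (8) were above in blood. The median likeness to SPARC was 0.13, but 0.35 without blood and 0.29 as Spearman's rho. By their second brightest probe 5 (9) genes with several probes were highest in a fat. With the animal as a replicate block 15 (16) were lower in diaphragm against *Biceps femoris*, and no call of a named gene changed. The cause of these changes was not tested.

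Of the 76 named differences, 1020 values under these settings kept direction and call, 22 lost the call and 0 reversed. Those that lost it were TIMP2 in muscles, FN1 in ileum, BGN between the fats, MMP7 in fats against muscles, and COL6A2, TIMP2, COL1A2 and COL5A1 between the muscles. Signal over background limits the counts, in blood for 33 of 37 probes higher that were not above the reporters.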

Other observations

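Other genes of the matrix set some tissues apart that had few members in the lead. In liver, VTN, the plasma adhesion protein vitronectin, averaged 13.48 ± 0.13 in liver and 4.25 ± 0.78 in the other solid tissues (limma, adjusted p = 2.3e-33), and A2M, the broad protease inhibitor alpha-2-macroglobulin, 13.19 ± 0.11 in liver and 8.65 ± 2.61 in the others (adjusted p = 4.7e-17). Of the 22 other matrix glycoproteins and proteoglycans 4 were higher and 12 lower in liver (26.5% and 34.2% of the named genes). A2M was also high in the adrenal tissues, at 13.76 ± 0.20 there and 8.21 ± 2.16 in the others (adjusted p = 6.7e-26), together with the elastic fibre protein EMILIN2 at 8.90 ± 0.18 in adrenal tissues and 6.16 ± 1.35 in the others (adjusted p = 6.5e-27). In the thyroid gland NID2, a nidogen that links laminin to type IV collagen, averaged 9.27 ± 0.45 there and 6.90 ± 1.57 in the others (adjusted p = 1.8e-12). It was 1 of 2 measured basement membrane partners, of which 1 was higher and 1 lower in the fats.

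Of 12 matrix receptors 6 were higher and 4 lower in blood than in the solid tissues (33.2% and 46.9% of the named genes). ITGB3, the beta chain of the platelet fibrinogen receptor, averaged 8.16 ± 0.15 in blood and 5.17 ± 0.68 in the solid tissues (adjusted p = 6.5e-28), and THBS1, thrombospondin-1, 8.62 ± 0.45 in blood and 6.21 ± 1.42 in the solid tissues (adjusted p = 1.9e-12). In neurohypophysis against adenohypophysis 9 of 14 other matrix proteases and inhibitors were higher and 1 lower (12.9% and 12.3% of the named genes). The cysteine protease CTSK, cathepsin K, averaged 9.72 ± 0.31 in neurohypophysis and 7.04 ± 0.17 in adenohypophysis (adjusted p = 1.0e-18).

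Probes of 1 gene did not always share an order of tissues. The 21 genes with several probes had 35 probes besides the brightest, and 18 of these were highest in the same tissue as the brightest. Of the 19 that were above the reporters in some tissue 11 shared the tissue, and of the 16 that were above in none 12 were highest in blood.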
